A study of Mus musculus with 8 samples.

Results

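The miR-29 family was followed in the kidneys of ICR mice (an outbred stock) with one ureter tied off for 7 days, an operation known as unilateral ureteral obstruction (UUO). Its members were taken by name, as every mouse microRNA (miRNA) on the array called miR-29a, miR-29b or miR-29c on either strand. This gave 6 of 611 mouse miRNAs, mmu-miR-29a, mmu-miR-29b, mmu-miR-29c, mmu-miR-29a*, mmu-miR-29b* and mmu-miR-29c*, in which mmu stands for mouse and is left out from here on where it is clear. The asterisk is the older mark for the minor strand of a hairpin. The groups were obstructed kidneys (UUO, n = 4) and contralateral kidneys without obstruction (control, n = 4). Both groups come from operated ICR mice, the labels describe no sham-operated or untouched animals, and age and sex are not given in the sources used here. Total RNA of whole kidney, purified with Trizol and a miRNA column, was labelled with Cy3 (100 ng a sample) and put on 8 1-colour Agilent arrays.

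A miRNA is a short RNA that is cut from a hairpin precursor and guides the silencing complex to messenger RNAs through its seed, the bases near its 5′ end. The miR-29 family is known for binding messenger RNAs of collagens and other matrix proteins, and in kidney, heart, liver and lung it is widely described as limiting fibrosis. Transforming growth factor beta is known to lower its members in fibrotic tissue.

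The mature sequences are shown because the shared seed defines the family and because its members are nearly identical, so that probes must tell a few bases apart. All 6 names were found in the RefSeq miRNA table of build GRCm38.p6, and the name miR-29b* could stand for either of 2 strands there, since the files do not say which. The sequences are written 5′ to 3′ with the seed, bases 2 to 8, in capitals. The first 3 are the main strands.
miR-29a: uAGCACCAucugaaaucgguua
miR-29b: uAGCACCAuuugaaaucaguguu
miR-29c: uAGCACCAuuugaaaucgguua
miR-29a*: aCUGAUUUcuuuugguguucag
miR-29b* (strand of the precursor Mir29b-1): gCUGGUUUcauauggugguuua
miR-29b* (strand of the precursor Mir29b-2): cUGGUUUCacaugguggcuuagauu
miR-29c*: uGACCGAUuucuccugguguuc

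The 3 main strands share the seed AGCACCA, and of 1679 mature names in the table these 3 are the ones that carry it. None of the less abundant strands has this seed. miR-29c and miR-29a match at 21 of 22 bases and differ by U10C, with miR-29c's base first and positions counted from 1 at the 5′ end. miR-29c and miR-29b share their first 17 bases and differ after them. The main strands hold 34.8% to 40.9% G and C, against a median of 52.2% over all mature sequences of the table. The sequences of the array's probes were not used here, and how far the probes of miR-29a and miR-29c separate the 2 RNAs was not tested.

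The family comes from 4 precursor genes in 2 pairs, shown because both strands of one precursor and both precursors of one pair are covered by the array. In GRCm38.p6, Mir29b-2 (chr1:195037040-195037120) and Mir29c (chr1:195037547-195037634) lie on the plus strand with 426 bases between them. Mir29a (chr6:31062660-31062747) and Mir29b-1 (chr6:31063023-31063093) lie on the minus strand with 275 bases between them. Capitals mark the 2 mature strands of each hairpin.
Mir29b-2: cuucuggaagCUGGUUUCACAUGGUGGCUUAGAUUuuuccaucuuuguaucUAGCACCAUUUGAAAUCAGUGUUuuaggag
Mir29c: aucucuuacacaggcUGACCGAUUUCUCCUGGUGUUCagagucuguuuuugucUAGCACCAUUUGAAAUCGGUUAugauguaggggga
Mir29a: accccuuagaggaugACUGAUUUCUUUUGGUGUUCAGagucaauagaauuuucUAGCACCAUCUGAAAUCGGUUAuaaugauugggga
Mir29b-1: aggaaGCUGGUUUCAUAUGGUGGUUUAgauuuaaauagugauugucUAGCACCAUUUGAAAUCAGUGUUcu
Mature miR-29b is the same in both of its precursors, so its signal cannot be divided between chromosome 1 and chromosome 6. miR-29c and miR-29c* come from chromosome 1 alone, and miR-29a and miR-29a* from chromosome 6 alone.

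Signal before scaling and the likeness of the arrays bear on every value that follows. The 75th percentile signal of probes above background was 514 to 1595 on the obstructed arrays and 417 to 582 on the contralateral arrays, a log2 difference of 0.88 (two-sided exact permutation p = 0.0857, n = 4 each). The number of miRNAs above background was 243 to 310 on the obstructed arrays and 228 to 240 on the contralateral arrays, without overlap (two-sided exact permutation p = 0.0286, n = 4 each). All levels are given as scaled signal, the summed signal of a miRNA's probes over that percentile of its own array, so a change is relative to that percentile. The array of obstructed kidney 2 stood apart, with a mean correlation across 222 miRNAs of 0.887 with the other obstructed arrays and 0.964 with the contralateral arrays. Of 6 kidney tubule markers 5 could be tested, and of 5 markers of other organs, miR-122 (liver), miR-124 (brain) and miR-208a (heart) were above background on no array. The others of that list, miR-9 and miR-375, were above background on at least 1 array. miR-9 was tested and was not called (log2 change -0.10, limma adjusted p = 0.771). All 8 arrays lay on 1 slide with 1 scan.

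Of the 5 family members that could be tested, 3 fell in obstructed kidneys and none rose, namely miR-29c, miR-29c* and miR-29a (limma, Benjamini-Hochberg adjusted p under 0.05 over 222 miRNAs). Among all 222 tested miRNAs 14.9% were called, 13.5% lower and 1.35% higher. The median log2 change of the 5 members was -0.73, against -0.14 over all tested miRNAs, and all 5 values lay below 0, as did 129 of the 222. At an unadjusted p under 0.05 there were 4 members, with miR-29b beside the 3 that were called, and 81 of the 222 miRNAs. The obstructed arrays lay wholly below the contralateral arrays for miR-29c, miR-29c* and miR-29a, and for 21.2% of all tested miRNAs, while 1.8% of all lay wholly above. Whole kidneys were measured, so fewer cells that hold a miRNA and less of it per cell cannot be told apart.

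**Figure D1:**
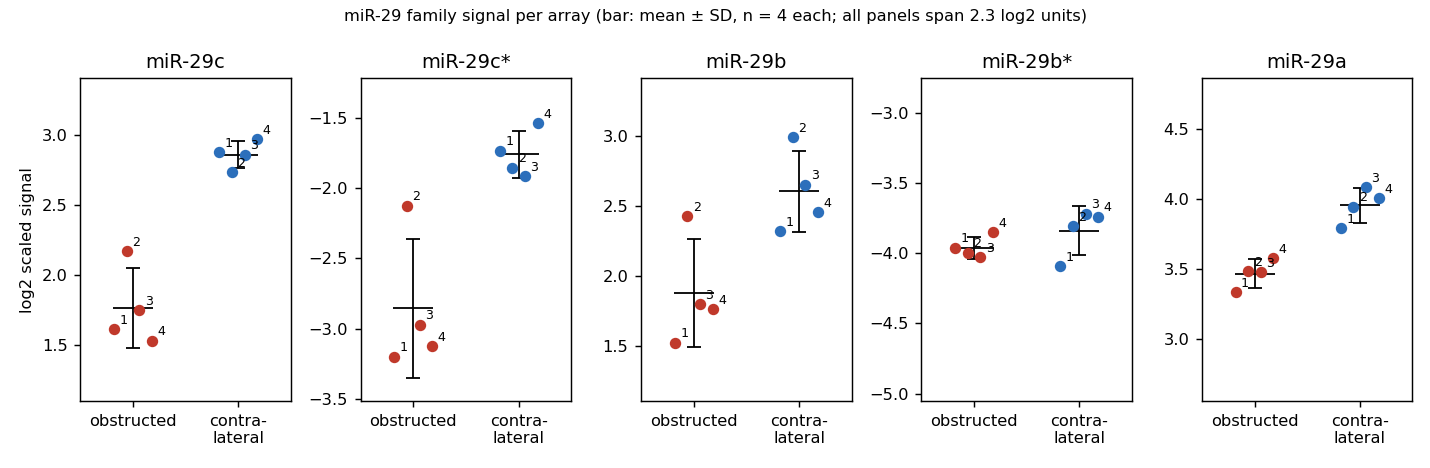
Scaled signal on the log2 scale for the 5 tested members on every array, obstructed (red) left of contralateral (blue), with kidney numbers beside the points and bars for mean ± SD (n = 4 each). Each panel spans the same number of log2 units. The groups are separate for miR-29c, miR-29c* and miR-29a and overlap for miR-29b and miR-29b*, and obstructed kidney 2 is the highest obstructed array for miR-29c, miR-29c* and miR-29b.

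mmu-miR-29c, the main strand of the Mir29c precursor, had the smallest p of the family. Its scaled signal was 3.06, 4.50, 3.37 and 2.90 in obstructed kidneys 1 to 4, against 7.35, 6.65, 7.25 and 7.82 in contralateral kidneys 1 to 4. Every obstructed kidney lay below every contralateral kidney, with obstructed kidney 2 the nearest to them. The mean was 3.46 ± 0.723 in obstructed kidneys and 7.27 ± 0.482 in contralateral kidneys (SD, n = 4 each). The log2 change was -1.09 ± 0.17 (SE), a level 2.13-fold lower, with a limma adjusted p of 0.0172. Its unadjusted p was the 2nd smallest of the 222, and its change was the 16th lowest. Its probes gave similar changes, -1.10 ± 0.18 and -1.08 ± 0.16 on the log2 scale (SE, n = 4 each), and both were called in the fit over 421 probes (limma adjusted p = 0.0169 and 0.0114).

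mmu-miR-29c*, the minor strand of the same hairpin, fell as well. Its scaled signal was 0.109, 0.229, 0.127 and 0.115 in obstructed kidneys 1 to 4, against 0.301, 0.277, 0.265 and 0.345 in contralateral kidneys 1 to 4. The groups did not overlap, and obstructed kidney 2 lay just under the lowest contralateral kidney while the other 3 lay far below it. The log2 change was -1.10 ± 0.25 (SE, n = 4 each), or 2.14-fold lower, with a limma adjusted p of 0.0277. The probes gave -1.14 ± 0.27 and -1.08 ± 0.24, both called (limma adjusted p = 0.0278 and 0.0249). In obstructed kidney 2 the strand lay 0.36 below the contralateral mean on the log2 scale, while the other obstructed kidneys lay 1.21 to 1.44 below it.

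mmu-miR-29a, the main strand of the chromosome 6 precursor Mir29a, had the smallest change of the members that fell. Its scaled signal was 10.08, 11.2, 11.1 and 11.9 in obstructed kidneys 1 to 4, against 13.8, 15.4, 16.9 and 16.04 in contralateral kidneys 1 to 4. The groups were separate, and obstructed kidney 2 lay inside the range of the other obstructed kidneys. The log2 change was -0.49 ± 0.13 (SE, n = 4 each), or 1.401-fold lower, with a limma adjusted p of 0.0335. One probe gave -0.53 ± 0.13 and was called (limma adjusted p = 0.0303), and the other gave -0.38 ± 0.14 and was not (limma adjusted p = 0.0994). In all, 5 of 9 tested family probes were called lower, where 15.4% of all 421 tested probes were called and 13.5% were called lower.

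mmu-miR-29b, which both precursor pairs encode, did not pass the test. Its scaled signal was 2.88, 5.37, 3.48 and 3.40 in obstructed kidneys 1 to 4, against 4.99, 7.93, 6.28 and 5.49 in contralateral kidneys 1 to 4. Obstructed kidney 2 lay above contralateral kidney 1, and the other 3 obstructed kidneys lay below all contralateral kidneys. The log2 change was -0.73 ± 0.23 (SE, n = 4 each), with a limma adjusted p of 0.0721. Both probes gave similar values, -0.78 ± 0.26 and -0.72 ± 0.23 (SE, n = 4 each), and neither was called (limma adjusted p = 0.0794 and 0.0672).

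The remaining minor strands were close to background or below it. mmu-miR-29b* had a scaled signal of 0.0642, 0.0626, 0.0612 and 0.0693 in obstructed kidneys 1 to 4, against 0.0586, 0.0714, 0.0760 and 0.0748 in contralateral kidneys 1 to 4. The groups overlapped, and the log2 change was -0.12 ± 0.13 (SE, n = 4 each, limma adjusted p = 0.555). Of its 4 probes, 1 was above background on all arrays, with a log2 change of -0.075 ± 0.11 (SE, limma adjusted p = 0.691). mmu-miR-29a* was above background on none of the 8 arrays, so it was not tested and no fold is given for it.

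**Figure D2:**
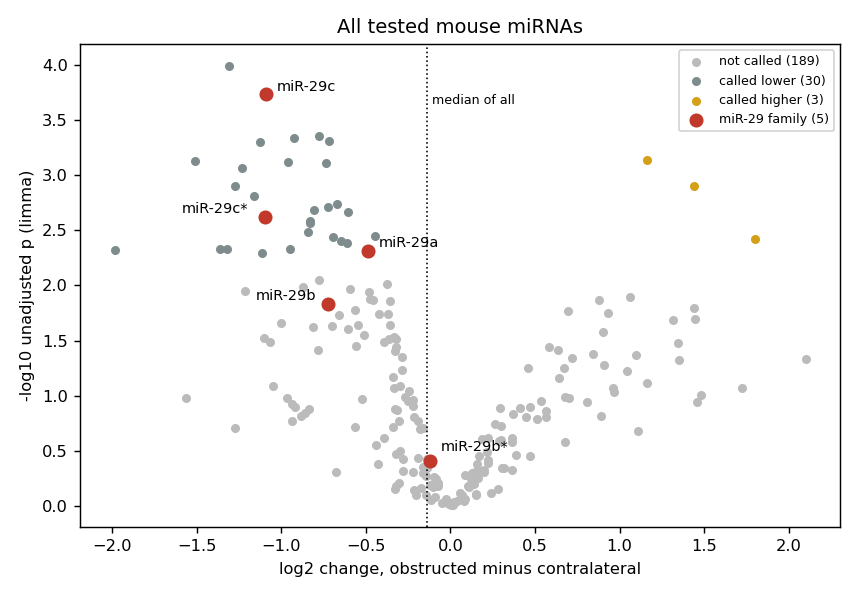
Log2 change (obstructed minus contralateral, horizontal axis) against the -log10 of the unadjusted limma p (vertical axis) for the 222 tested miRNAs, with the 5 tested family members in red and the median of all as a dotted line. miR-29c lies near the top at -1.09, miR-29a is the called member nearest to 0 at -0.49, and miR-29b* lies at the median of all.

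The members did not lie at one value, so their changes were compared through ratios of 2 members within each array. Such a ratio is the same whatever constant an array is scaled by, and it compares changes and not levels. Over 10 pairs of the 5 tested members, exact permutation tests over 8 arrays can give no p below 0.0286, and 3 pairs reached it. Adjusted over the 10 pairs these exact permutation tests had p = 0.0952, so 0 pairs passed at 0.05 (3 at an unadjusted p under 0.05).

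The ratio of miR-29a to miR-29c compares the main strands that come from chromosome 6 alone and from chromosome 1 alone. These 2 RNAs match at 21 of 22 bases, and how far their probes separate them was not tested. Relative to the contralateral mean on the log2 scale it was 0.62, 0.22, 0.63 and 0.95 in obstructed kidneys 1 to 4, against -0.18, 0.12, 0.13 and -0.060 in contralateral kidneys 1 to 4. All obstructed arrays lay above all contralateral arrays, with obstructed kidney 2 closest to them. The difference was 0.60 ± 0.17 (SE, n = 4 each, two-sided exact permutation p = 0.0286, adjusted p = 0.0952), which does not pass after adjustment. In slide row 1 the difference was 0.46 and in slide row 2 it was 0.75 (2 against 2 arrays each, not tested). Without obstructed kidney 2 it was 0.73 (exact permutation p = 0.0286, adjusted p = 0.0476, n = 3 and 4). That array was chosen for its values, and leaving it out widens the difference by construction, so this p is not separate evidence.

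The change of miR-29b lay between those of miR-29a and miR-29c. The ratio of miR-29a to miR-29b had a log2 difference of 0.24 ± 0.22 and that of miR-29b to miR-29c one of 0.37 ± 0.20 (SE, n = 4 each, exact permutation adjusted p = 0.413 and 0.204). In both ratios the groups overlapped, so the place of miR-29b in this order is within the spread of the arrays.

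Between the 2 strands of the Mir29c hairpin no difference in change was detected. The ratio of miR-29c to miR-29c* differed between the groups by 0.0049 ± 0.13 (SE, n = 4 each, exact permutation p = 0.971, adjusted p = 0.971). On the obstructed arrays it lay 0.20, -0.32, 0.11 and 0.042 from the contralateral mean, and on the contralateral arrays -0.0068, -0.032, 0.15 and -0.12. The obstructed arrays lay on both sides of 0, and obstructed kidney 2 was the lowest of all 8. For miR-29b and miR-29b* the ratio differed by -0.61 ± 0.24 (SE, n = 4 each, adjusted p = 0.190 by the exact permutation test), and miR-29b* was close to background.

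**Figure D3:**
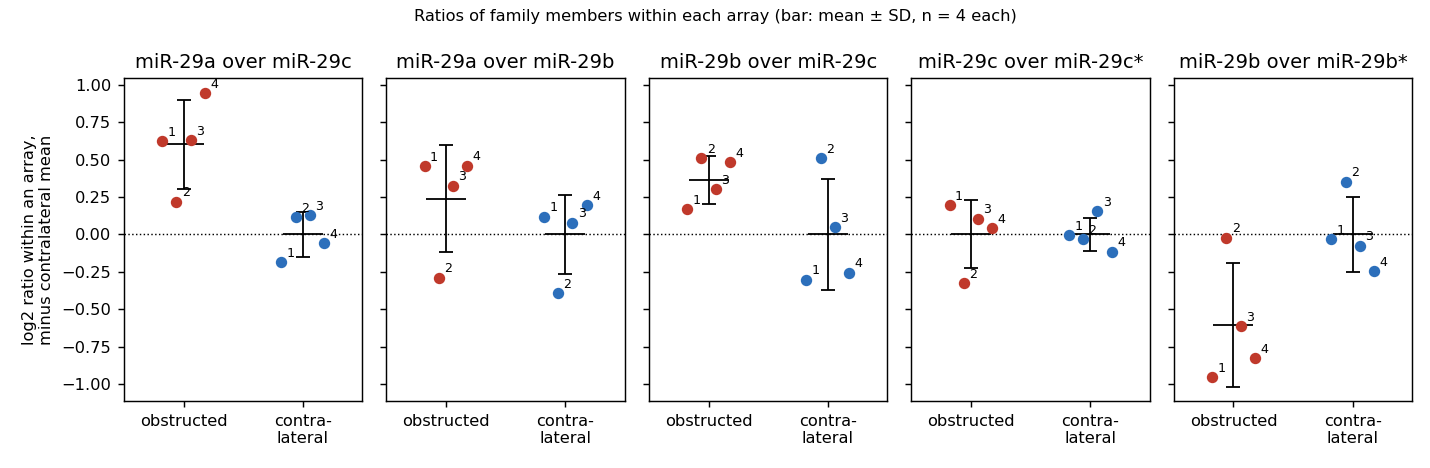
Log2 ratio of 2 family members within each array, minus the contralateral mean (vertical axis), obstructed (red) left of contralateral (blue), with kidney numbers and bars for mean ± SD (n = 4 each). The ratio of miR-29a to miR-29c is separate between the groups, with obstructed kidneys at 0.22 to 0.95, and that of miR-29c to miR-29c* is centred near 0 in both.

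Obstructed kidney 2 was the least changed obstructed kidney for miR-29c, miR-29c* and miR-29b. Without it, 4 of 5 tested members fell, in a fit where 50.9% of all 222 miRNAs were called, 30.2% lower and 20.7% higher. miR-29b was then at -0.91 ± 0.18 on the log2 scale (limma adjusted p = 0.00595), miR-29c at -1.23 ± 0.11 (limma adjusted p = 0.000365) and miR-29c* at -1.34 ± 0.13 (limma adjusted p = 0.000440; SE, n = 3 and 4). miR-29a was hardly moved, at -0.49 ± 0.12 (limma adjusted p = 0.0120). The array was chosen for its values, and leaving out the obstructed array most like the contralateral ones widens the difference by construction. Within slide row 1, which held kidneys 1 and 2 of both groups, the changes were -0.91 for miR-29c, -0.87 for miR-29c*, -0.68 for miR-29b, -0.46 for miR-29a and -0.029 for miR-29b*. Within slide row 2, which held kidneys 3 and 4, they were -1.27, -1.32, -0.77, -0.52 and -0.21 in the same order of members. All 5 lay below 0 in both rows, and those of row 2 were the larger. Row 2 lacked obstructed kidney 2, and its obstructed arrays had the highest signal before scaling. Their 75th percentile was 1403 and 1595, against 689 and 514 for obstructed kidneys 1 and 2 and 417 to 582 on the contralateral arrays. Which of these bears on the difference between the rows was not tested.

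The number of called members rested on single arrays, although the values did not. Leaving out obstructed kidney 1 or 3 or contralateral kidney 1, 3 or 4 gave 0 called members and 0 called miRNAs in all (limma, smallest adjusted p from 0.0520 to 0.0678), while 4 members and 54 to 67 miRNAs in all had an unadjusted p under 0.05 each time. Leaving out obstructed kidney 4 or contralateral kidney 2 gave 1 called member, miR-29c, with 14 and 20 called miRNAs in all. With any 1 array left out, miR-29c lay between -1.23 and -1.01, miR-29c* between -1.34 and -0.98, miR-29b between -0.91 and -0.60 and miR-29a between -0.54 and -0.44 on the log2 scale.

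Without scaling no member differed between the groups by the test. The summed signal of miR-29c was 2109, 2315, 4726 and 4620 in obstructed kidneys 1 to 4, against 3772, 2776, 4002 and 4556 in contralateral kidneys 1 to 4, and the groups overlapped. Before scaling, the obstructed kidneys thus lay below the contralateral ones in slide row 1 (kidneys 1 and 2). They lay above them in slide row 2 (kidneys 3 and 4), where the fall appears only after scaling. The unscaled log2 changes were -0.21 for miR-29c, -0.22 for miR-29c*, 0.16 for miR-29b, 0.39 for miR-29a and 0.76 for miR-29b*, none called (limma adjusted p from 0.287 to 0.826, 0 of 5 at an unadjusted p under 0.05), where the median of all tested miRNAs was 0.74. Relative to that median miR-29c lay at -0.95, miR-29c* at -0.96, miR-29b at -0.58 and miR-29a at -0.35. These equal the values after scaling by construction, since scaling shifts all miRNAs of an array alike, so they do not test the scaling. With normexp, another way to correct background, the median of all moved to -0.62. miR-29c then lay at -0.35 and miR-29c* at -0.56 relative to it, miR-29b at 0.0026, miR-29a at 0.25 and miR-29b* at -0.48 (a log2 change of -1.10, limma adjusted p = 0.181), so relative to the median of all the direction turned for miR-29a, miR-29b and miR-29b*. With quantile normalization the change of miR-29a was -0.20 (limma adjusted p = 0.300).

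**Figure D4:**
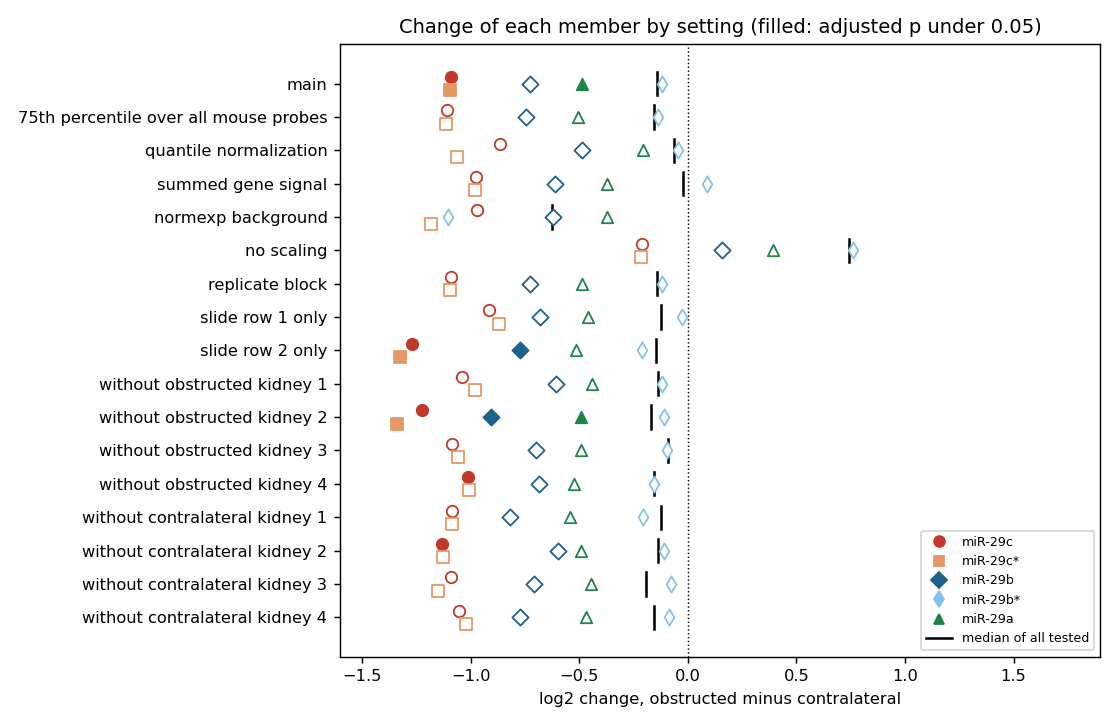
Log2 change (obstructed minus contralateral) of each tested member under the main setting and some of the alternatives, with filled symbols for a limma adjusted p under 0.05 and a black bar for the median of all tested miRNAs. miR-29c and miR-29c* lie left of 0 in every setting drawn, at -0.21 and -0.22 without scaling. miR-29a, miR-29b and miR-29b* lie right of 0 without scaling, as does miR-29b* with the summed gene signal, and miR-29a lies right of the median of all with normexp.

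Of the summed cell type markers given here, those of kidney tubules did not overlap between the groups and the others did. The summed scaled signal of 6 kidney tubule markers was 17.7 to 22.5 in obstructed and 28.5 to 32.9 in contralateral kidneys, without overlap. Of 5 tested, 2 were called lower (13.5% of all tested miRNAs were), miR-192 at -1.27 ± 0.26 and miR-194 at -1.31 ± 0.18 (SE, n = 4 each). Not called were miR-10b at -0.48 ± 0.15, miR-204 at -0.12 ± 0.25 and miR-10a at 0.0043 ± 0.15, and miR-215 was above background on no array. The summed scaled signal of 7 leukocyte markers was 1.88 to 7.69 in obstructed and 1.98 to 2.71 in contralateral kidneys. That of 3 fibroblast and mesenchyme markers on the array was 2.50 to 13.1 in obstructed and 3.09 to 4.21 in contralateral kidneys. Obstructed kidney 2 had the lowest sum of both, 1.88 and 2.50, and the highest tubule sum of the obstructed kidneys, 22.5. Of the tested markers 0 of 5 leukocyte and 0 of 3 fibroblast and mesenchyme miRNAs were called by limma on 8 arrays (3 and 1 at an unadjusted p under 0.05), and all 5 and all 3 were called higher without obstructed kidney 2, where 20.7% of all tested miRNAs were. That array had the lowest sum of both lists, so leaving it out widens these differences by construction and is not separate evidence. The sum of 3 erythroid markers was 5.15 to 24.4 in obstructed and 5.16 to 44.6 in contralateral kidneys, and that of 2 endothelial markers was 9.57 to 13.2 in obstructed and 12.1 to 15.2 in contralateral kidneys. Of 2 tested erythroid markers 0 were called by limma. Of 2 endothelial markers 1 was called lower, where 13.5% of all tested miRNAs were. It was miR-126-5p at -0.81 ± 0.18 (SE, n = 4 each, limma adjusted p = 0.0266), while miR-126-3p at -0.30 ± 0.15 was not called. The part of these cell types in the change of the miR-29 family was not tested.

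Among other miRNAs described as limiting fibrosis, 20 were listed and 18 tested, of which 6 fell and none rose (limma), where 13.5% of all tested miRNAs fell and 1.35% rose. Their median log2 change was -0.55, against -0.14 over all tested miRNAs. Those that fell were miR-30e (-1.36 ± 0.35), miR-101a (-1.13 ± 0.20), miR-30a (-0.84 ± 0.20), miR-200a (-0.72 ± 0.16), miR-26b (-0.72 ± 0.13) and miR-429 (-0.60 ± 0.14; SE, n = 4 each). The 2 others with the highest mean signal, let-7c and let-7b, were at -0.32 ± 0.13 and -0.29 ± 0.12 and were not called. Of the 18, 15 lay below 0. Those above it were miR-148a (0.44 ± 0.28), miR-200c (0.15 ± 0.22) and miR-141 (0.14 ± 0.28), none called. Without obstructed kidney 2, 13 of the 18 fell and 1 rose, in the fit where 30.2% of all tested miRNAs fell and 20.7% rose. Of 15 miRNAs described as promoting fibrosis or rising with transforming growth factor beta, 9 were tested, 1 fell and none rose (limma), with a median of 1.05. The one that fell was miR-192, abundant in tubule epithelium (-1.27 ± 0.26), while miR-21 was at 0.81 ± 0.46 and miR-27a at 0.30 ± 0.17, neither called. Without obstructed kidney 2, 7 of the 9 rose and 1 fell, beside the same 20.7% and 30.2% of all. For both lists, leaving out the obstructed array most like the contralateral ones widens the differences by construction, so these counts are not separate evidence. Of the second list, miR-155, miR-214, miR-199a-3p, miR-199a-5p and miR-192 are also among the cell type markers given above.

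The miRNAs most like each member over the 8 arrays were found by the root mean square difference of their log2 profiles, each centred on its own mean. For miR-29c these were miR-107 (0.090), miR-203 (0.11) and miR-101a (0.14), and miR-29c* was 5th of 221 at 0.16. For miR-29c* they were miR-365 (0.15), miR-107 (0.16) and miR-378* (0.16), and miR-29c was 2nd of 221. The other pairs of family members were less alike: miR-29b was 29th for miR-29c, miR-29a was 39th and miR-29b* 83rd. miR-29a was closest to miR-221 (0.097), miR-151-5p (0.11) and miR-26a (0.11), with its own relatives between 25th and 106th. miR-29b was closest to miR-30b (0.13), miR-30d (0.15) and miR-186 (0.17), with miR-29a 20th and miR-29c 24th. For miR-29b* they were miR-331-3p, miR-24-1* and miR-23b, each at 0.12. These values describe 8 arrays that share their scaling.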

How the data were processed

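Spot intensity values of 1-colour arrays were deposited as Agilent Feature Extraction wrote them (version 10.7.3.1 per the file headers, 10.1.1 per the submitters' processing notes). The software had subtracted local background and removed spatial trends, and arrays were not scaled to each other, per the file headers. Intensity values in the authors' series matrix were identical to these. Other deposited columns hold 0 or 1 for each spot, to mark an outlier, a saturated spot or a signal well above background.

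Spots marked as outliers (2.34% to 3.52% of 13000 per array) were dropped, none was saturated, and the rest were averaged by probe. Scaling used the 75th percentile over 371 probes above background on all 8 arrays. Probe signals were summed by miRNA, values under 0.0213 were raised to that floor, and the log2 was used. A probe was above background when over 50% of its spots were, and a miRNA when 1 of its probes was. The 222 miRNAs above background on every array of a group were tested with limma 3.58.1 (R 4.3.3, two-sided, Benjamini-Hochberg over all 222). Nothing in the labels says that kidneys came from separate mice, so p-values measure the spread between these samples, which may be technical. The number of arrays limits the precision.

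The family and the lists were chosen with earlier results of these data known. The miRNAs named were all family members, the 3 outside it most like each tested member, and, of the 2 fibrosis lists, those called plus the 2 others of highest mean signal. Marker miRNAs are named with their lists. The fits were tested on simulated data with independent noise for each miRNA. Such data hold no shift shared by many miRNAs of an array, so they cannot show how far the calls rest on single arrays. Alternatives changed scaling, background correction, signal source, floor, probe summary, filter, blocks, weights, variance trend and the arrays included. An alternative for array signal, leaving out each array, was chosen after seeing the data.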

Additional observations from a re-analysis of the deposited data

How the results depend on the processing

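As reported, 33 of 222 miRNAs were called by limma (3 higher, 30 lower), among them 3 family members. The number called was 0 with the replicate block (67 at an unadjusted p under 0.05), with the percentile taken over all mouse probes (56), with normexp (54) and in slide row 1 alone (1, from 2 against 2 arrays), and no family member was called in any of these. It was 2 with quantile normalization (1 higher, 1 lower), 3 with the summed gene signal (2 higher, 1 lower), and 3 without scaling or with the unscaled series matrix (3 higher, 0 lower), again with 0 family members. It was 17 without a filter (2 family members), 69 in slide row 2 alone (3) and 138 with array weights (4). The cause was not tested. With 1 array left out the number was 0 to 113, with 0 to 4 family members. The probe fit called 65 of 421 probes, 5 of them of the family, against 0 and 0 without scaling (limma), 11 and 0 with quantile normalization, and 0 to 210 and 0 to 7 with 1 array left out. The log2 difference in array signal was 0.63 to 1.17 with 1 array left out, and only without obstructed kidney 2 did it pass (1.17, exact permutation p = 0.0286).

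Without scaling, as with the unscaled series matrix, miR-29a turned to 0.39, miR-29b to 0.16 and miR-29b* to 0.76, and the summed gene signal put miR-29b* at 0.089. In the 26 alternatives run, miR-29c lay between -1.27 and -0.21 miR-29c* between -1.38 and -0.22, miR-29a between -0.54 and 0.39, miR-29b between -0.91 and 0.16 and miR-29b* between -1.10 and 0.76. Of the 10 ratios, 0 to 6 passed by the exact permutation test when 1 array was left out (6 without obstructed kidney 2). The ratio of miR-29a to miR-29c stayed between 0.46 and 0.75 over 17 alternatives. With normexp the ratio of miR-29a to miR-29b* turned to 0.73, that of miR-29b to miR-29b* to 0.48 and that of miR-29b* to miR-29c to -0.13. The ratio of miR-29c to miR-29c*, close to 0, was -0.0058 with the brightest probe only, 0.21 with normexp and -0.059 to 0.11 with 1 array left out.

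The deviations of same-numbered kidneys correlated at -0.35, 0.22, 0.62 and 0.015 for numbers 1 to 4 over 222 miRNAs. The numbers were not taken as pairs because the labels do not say that equal numbers came from 1 mouse. The contralateral kidney that correlated best with obstructed kidneys 1 to 4 was number 3, 1, 3 and 1, so only number 3 matched its own number best. Some numbers did deviate together, and these correlations cannot settle whether the kidneys were paired. With the replicate block, which takes equal numbers as pairs, 0 family members were called (miR-29c at a limma adjusted p of 0.0729). The signals of miR-29b* and miR-29a* near background limit what can be seen of them.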
